A study of Saccharomyces cerevisiae with 8 samples.

Results

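The RNA exosome is a complex that degrades and trims RNA from the 3′ end in the nucleus and the cytoplasm. Its core is a barrel. A ring of RNase PH-like proteins, which in yeast has lost its own catalytic activity, is covered by a cap of RNA-binding proteins, and RNA is threaded through the channel to the nuclease Dis3 at the bottom. In the nucleus the exonuclease Rrp6 also sits on the cap, and the TRAMP complex, which contains Air1 or Air2, adds short adenosine tails that mark RNAs for the exosome. Described here are the transcripts of the 10 core genes, taken by symbol from the 9014 features counted. They are the 3 cap genes RRP4 (YHR069C), RRP40 (YOL142W) and CSL4 (YNL232W), the 6 ring genes SKI6 (YGR195W, also called RRP41), RRP42 (YDL111C), RRP43 (YCR035C), RRP45 (YDR280W), RRP46 (YGR095C) and MTR3 (YGR158C), and DIS3 (YOL021C, also called RRP44). No strain of the series carries a deletion of a core gene. None of the 10 was chosen for its measured values, though earlier results of these data were known.

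Polyadenylated RNA of the budding yeast Saccharomyces cerevisiae was sequenced on the SOLiD platform from 4 strains, with 2 libraries each. Every strain was of mating type alpha and carried his3D1, leu2D0, lys2D0 and ura3D0, and the wild type (WT, BY4742) had no further change. The rrp6 strain carried rrp6::LEU2, the air1 rrp6 strain rrp6::LEU2 and air1::bleR, and the air2 rrp6 strain rrp6::LEU2 and air2::bleR. Strains without RRP6 therefore also carried LEU2, and the effects of these differences on a comparison with WT cannot be told apart. Each culture came from a single colony and grew in rich medium at 30 °C up to an OD600 near 2.5. Whether duplicates are separate cultures is not stated in the labels. The p-values therefore measure only the spread between these libraries, which may be technical. In bulk RNA, fewer cells with a transcript and less of it per cell cannot be told apart.

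Total counts ran from 13787609 to 124620247 per library, and features of the ribosomal DNA held 51.7 to 82.3% of them. Both ends of the range of totals were WT libraries, replicate 1 the lowest and replicate 2 the highest. The 6 other libraries had 16087567 to 29750702. WT replicate 2 also held the 82.3%, so comparisons with WT rest on duplicates of unlike depth and composition. The deleted genes went with the labels: WT held 377 and 2131 counts of RRP6 and the 6 other libraries 19 to 51, AIR1 had 7 and 2 in air1 rrp6, and AIR2 had 34 and 21 in air2 rrp6. The core exosome genes had 114 to 2248 counts per library, whole numbers throughout, and all 10 passed the filter on low counts. Over all features tested, duplicates of every strain differed by more than counting error (chi-square divided by its degrees of freedom, at least 68.2). That chi-square used library totals without further scaling, so shifts in composition enter it, and it does not describe the core genes by themselves. Counting is not stated to use strand, so reads of a gene and of a transcript antisense to it cannot be told apart. Levels below are CPM, scaled by edgeR's trimmed mean of M-values (TMM), given per library or as mean ± SD of 2 libraries.

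The core exosome transcripts were first tested for differences among the 4 strains. No member passed an adjusted p of 0.05 in a test for any difference among the strains by edgeR's quasi-likelihood test, a test that 5.62% of the 7543 features tested passed, and none had an unadjusted p under 0.05 in it, as 18% of features had. The smallest adjusted p was 0.28, for RRP42. In the 6 pairwise comparisons, no adjusted p among the 60 tests of members was under 0.05, 8 were under 0.05 unadjusted, beside 13% of the tests of all features, and the smallest adjusted p was 0.089. DESeq2 passed no member in any pairwise comparison. The strain means of a member spanned a median of 0.44 on the log2 scale, beside 0.46 for all 5647 protein-coding genes tested (means + 0.01 CPM for the latter). For 6 of the 10 members, the largest difference between duplicates was greater than the whole span of strain means. That difference is the largest over the 4 strains and lies between single libraries, while strain means average duplicates. The measures are therefore unlike, and smaller differences between duplicates were found in other strains. The share of other features whose largest difference between duplicates exceeded their span of strain means was not counted.

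**Figure D1:**
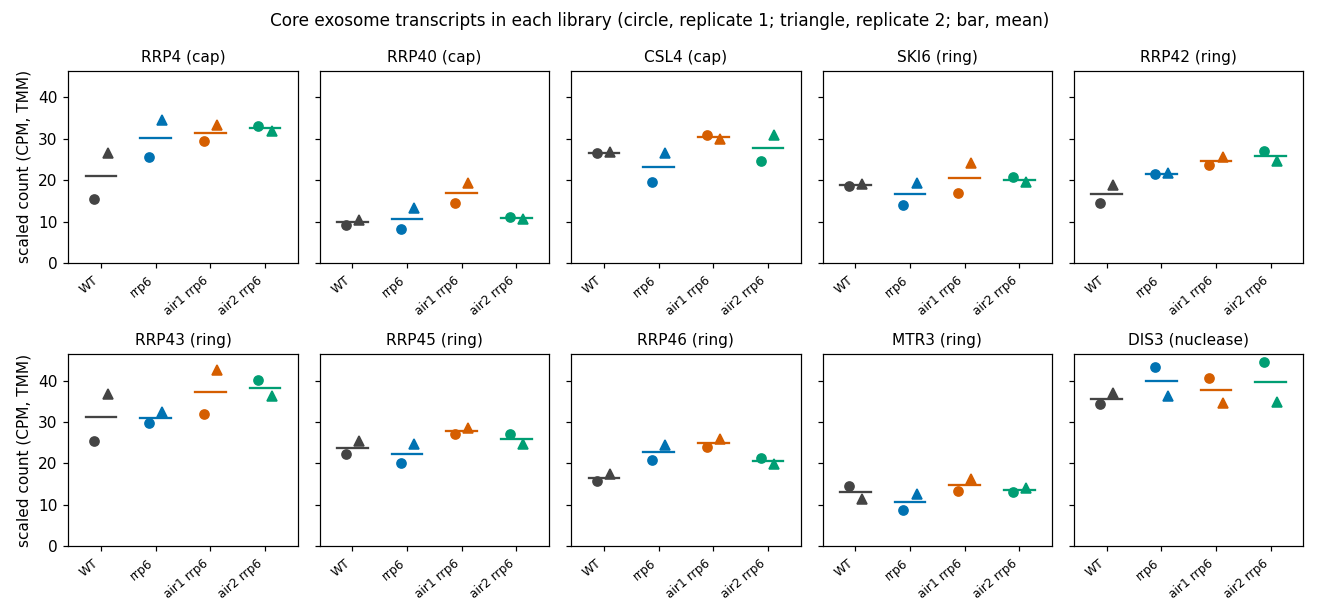
Scaled counts (CPM, vertical axis from 0) of the 10 core exosome genes in each of the 8 libraries, by strain. Circles are replicate 1, triangles replicate 2 and bars the mean. RRP4, RRP40, RRP42, RRP46 and DIS3 have their lowest mean in WT, and the other members have it in rrp6. RRP40 has its highest mean in air1 rrp6. The duplicates of DIS3 in each strain without RRP6 lie further apart than its strain means.

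Levels were set against each other per kilobase of coding length, taken from the RefSeq annotation, which ran from 672 bases in RRP46 to 3006 bases in DIS3. In WT the highest level per length was that of CSL4, an S1-domain cap protein also known as Ski4, at 30.3 ± 0.24 CPM per kb. RRP43 at 26.3 ± 6.8, RRP45 at 26.0 ± 2.4, SKI6 at 25.4 ± 0.29 and RRP46 at 24.7 ± 1.7 CPM per kb followed. RRP42 had 20.8 ± 3.8, RRP4 19.4 ± 7.4 and MTR3 17.3 ± 2.8 CPM per kb. The lowest were RRP40 at 13.6 ± 1.3 and DIS3 at 11.9 ± 0.63 CPM per kb. Neighbours in this order had overlapping duplicates in 7 of 9 cases, and the steps that separated the libraries were those from MTR3 to RRP40 and from RRP40 to DIS3. DIS3 is also the longest of the genes, and the part of length in its low value was not tested.

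DIS3, MTR3 and RRP40 held the lowest 3 places in every strain, while the order above them changed. RRP46 was highest in rrp6 at 33.9 ± 3.8 and in air1 rrp6 at 37.2 ± 2.1 CPM per kb, and RRP42 was highest in air2 rrp6 at 32.3 ± 2.1 CPM per kb. Neighbours overlapped in 8 of 9 cases for rrp6 and in 7 for each double mutant. The highest member stood 2.56-fold above the lowest for WT, 2.56-fold for rrp6, 2.97-fold for air1 rrp6 and 2.44-fold for air2 rrp6. Compared with the 5647 protein-coding genes tested, the members lay between the percentiles 48.1 and 76.3 of level per length in WT, and between 52.0 and 80.5 in the other strains. The median member level was 22.7 CPM per kb in WT, where the median of protein-coding genes was 12.5.

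**Figure D2:**
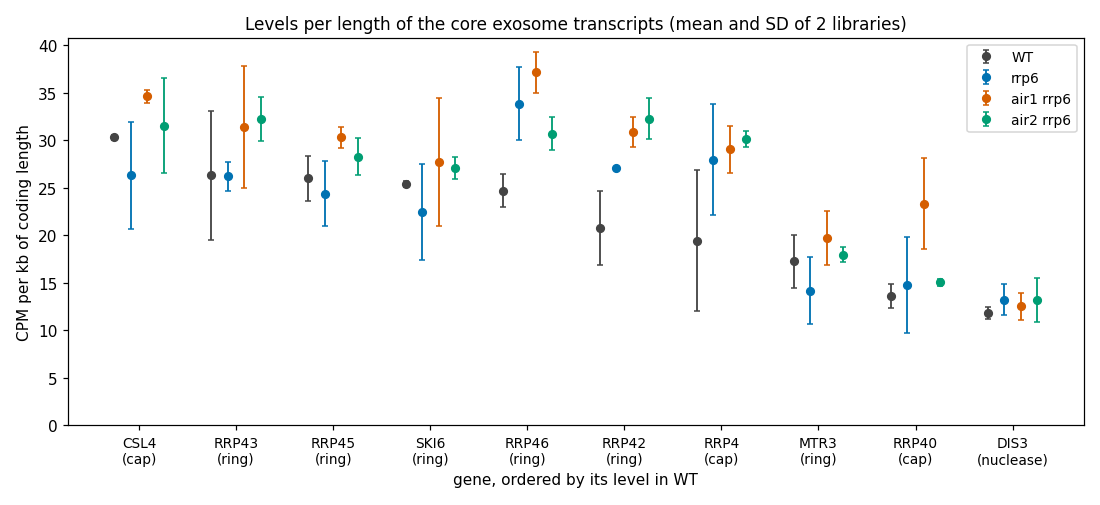
Level per length (CPM per kb of coding length, vertical axis from 0) of each core exosome gene, ordered by its level in WT, with 1 point per strain and bars for the SD of 2 libraries. DIS3, RRP40 and MTR3 lie lowest in every strain, and RRP40 in air1 rrp6, at 23.3 ± 4.8, lies above its level in the other strains.

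Ring proteins assemble as pairs, Rrp41 (Ski6) with Rrp45, Rrp43 with Rrp46, and Rrp42 with Mtr3. The levels per length of SKI6 and RRP45 were nearly equal, with a ratio of 0.98 ± 0.079 (SD, n = 2) for WT, 0.91 ± 0.079 for rrp6, 0.91 ± 0.19 for air1 rrp6 and 0.96 ± 0.024 for air2 rrp6. The ratio of RRP43 to RRP46 was 1.06 ± 0.20 for WT, 0.78 ± 0.042 for rrp6, 0.84 ± 0.12 for air1 rrp6 and 1.05 ± 0.017 for air2 rrp6. RRP42 exceeded its partner MTR3 in 7 of the 8 libraries, with ratios of 1.24 ± 0.42 for WT, 1.97 ± 0.48 for rrp6, 1.58 ± 0.15 for air1 rrp6 and 1.80 ± 0.20 for air2 rrp6. In WT replicate 1 the ratio of RRP42 to MTR3 was 0.94, the only library below 1. The ratios are given as a description and were not tested.

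The comparison of rrp6 with WT sets cells that lack the nuclear exonuclease against cells that have it. No core gene was among the features past the threshold, which were 10.1% of those tested. Of the members, 5 had higher and 5 lower point estimates, with a median log2 fold change of 0.05, and the median was -0.10 over protein-coding genes and 0.01 over all features tested. For 9 of the 10, the 95% interval of the log2 fold change lay within 2-fold either way, as did 45.5% of all intervals. RRP42 and RRP46 had both rrp6 libraries above both WT libraries, as had 28.5% of features. RRP46 was the 1 member with an unadjusted p under 0.05, as 23.2% of features had. Without rrp6 replicate 2 the median was -0.16, and without WT replicate 2 it was 0.19.

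The double mutants were compared with WT in the same way, and the comparisons share the WT libraries. In air1 rrp6 no member passed, where 8.39% of features did, and in air2 rrp6 no member passed, where 10.3% did. All 10 point estimates were above 0 in each double mutant, with medians of 0.23 in air1 rrp6 and 0.15 in air2 rrp6. Of protein-coding genes, 42.0% and 42.4% had point estimates above 0. Both libraries of air1 rrp6 were above both WT libraries for 6 members, as for 28.6% of features, and those of air2 rrp6 for 5, as for 30.7%. Intervals within 2-fold were found for 6 members in air1 rrp6 (49.6% of features) and 8 in air2 rrp6 (47.5%). In air1 rrp6 the unadjusted p was under 0.05 for RRP40, RRP42 and RRP46, as for 19.8% of features, and in air2 rrp6 for RRP4 and RRP42, as for 22.4%. Without WT replicate 1 the median was 0.13 in air1 rrp6 and -0.02 in air2 rrp6, and without WT replicate 2 that of air1 rrp6 was 0.42.

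Within the strains without RRP6, loss of Air1 or of Air2 was compared with rrp6 alone, and both comparisons share the rrp6 libraries. The double mutants also carried bleR, which the rrp6 strain lacked. Effects of bleR and of the loss of Air1 or Air2 cannot be told apart against rrp6. No member passed in air1 rrp6 against rrp6, where 0.0663% of features did, in air2 rrp6 against rrp6 (0.0133%), or in air1 rrp6 against air2 rrp6 (0.0795%). RRP40 was the 1 member with an unadjusted p under 0.05 in air1 rrp6 against rrp6 (5.69% of features), and none had one in air2 rrp6 against rrp6 (2.66%). Point estimates were above 0 for 9 of 10 members in air1 rrp6 against rrp6, with a median of 0.29, and for 8 of 10 in air2 rrp6, with a median of 0.24. Protein-coding genes had medians of 0.01 and 0.03. Both libraries lay above both rrp6 libraries for 5 members in air1 rrp6 (18.3% of features) and 5 in air2 rrp6 (15.7%), and both air1 rrp6 libraries lay above those of air2 rrp6 for 2 (18.6%). Intervals within 2-fold were found for 8 members in air1 rrp6 against rrp6 (51.3% of features), 10 in air2 rrp6 against rrp6 (55.7%) and 9 in air1 rrp6 against air2 rrp6 (54.1%). The air1 rrp6 and air2 rrp6 strains differed by a median of 0.07 over the members. Without air1 rrp6 replicate 2 the median of air1 rrp6 against rrp6 was 0.11. Leaving out rrp6 replicate 1 brought the median of air2 rrp6 against rrp6 to 0.07, and leaving out rrp6 replicate 2 brought it to 0.36.

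The 3 strains without RRP6 were also averaged and set against WT. Here 13% of features passed and no member did, by edgeR or by DESeq2. RRP42 (log2 fold change 0.52, SE 0.17, adjusted p = 0.079 by edgeR), RRP46 (0.45, SE 0.16, adjusted p = 0.11) and RRP4 (0.56, SE 0.22, adjusted p = 0.15) had unadjusted p-values under 0.05, as had 25.9% of features. RRP42 and RRP46 were above both WT libraries in all 6 libraries without RRP6, as were 18.9% of features. The intervals of 9 members lay within 2-fold, as did 57.4% of all. With library totals in place of TMM, which moved the median of all features to 0.77, RRP4 (1.44, adjusted p = 0.025) and RRP42 (1.34, adjusted p = 0.04) passed. With TMM, RRP4 passed in the model with the replicate number as a block (0.60, adjusted p = 0.045) and without WT replicate 2 (adjusted p = 0.045), and its log2 fold change was 0.14 without WT replicate 1 (adjusted p of 0.025 to 0.76 over all alternatives). Without WT replicate 1, RRP42 was at 0.26 and RRP46 at 0.29.

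**Figure D3:**
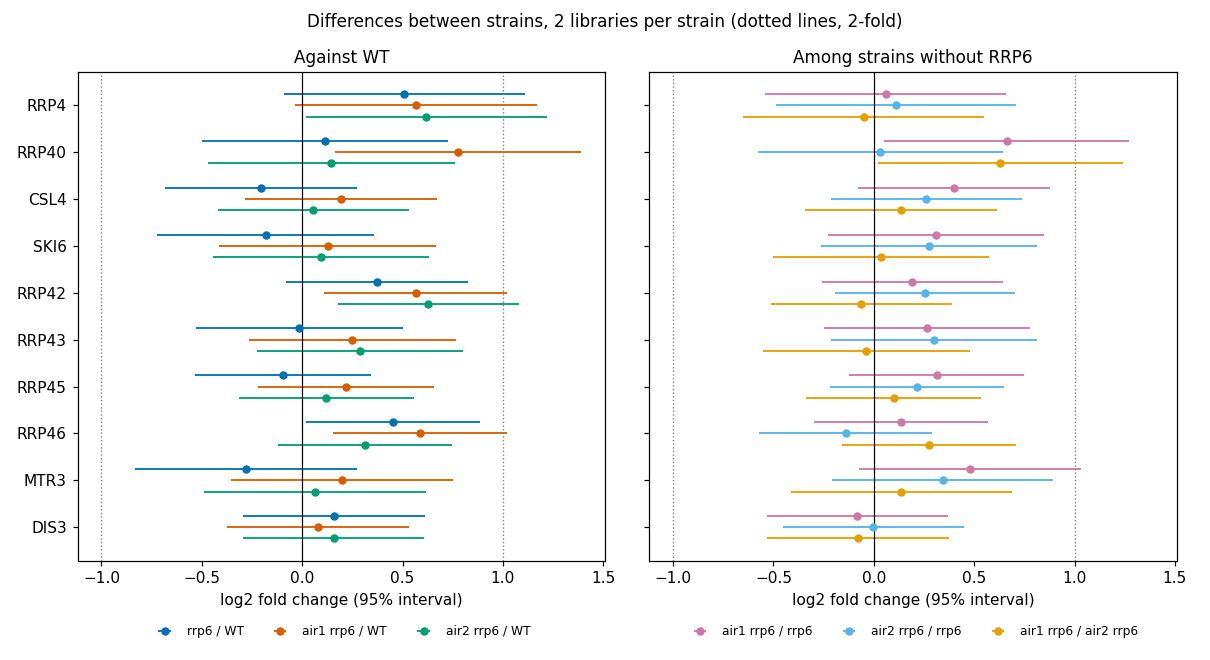
Log2 fold change of each core exosome gene in the 6 pairwise comparisons, with 95% intervals from edgeR's quasi-likelihood fit (2 libraries per strain); dotted lines mark 2-fold. Of the 60 intervals, 50 lie within 2-fold either way, and that of RRP40 in air1 rrp6 against WT reaches furthest above 0, to 1.39.

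RRP4 encodes a cap protein with RNA-binding S1 and KH domains. Its level was 15.4 and 26.6 CPM in the WT libraries, 25.7 and 34.6 in those of rrp6, 29.5 and 33.3 in those of air1 rrp6, and 33.2 and 31.9 in those of air2 rrp6. The WT duplicates lay further apart than those of any other strain, and WT replicate 2 was above 1 of the rrp6 libraries. The log2 fold change against WT was 0.51 in rrp6 (SE 0.27, n = 2, adjusted p = 0.30 by edgeR), 0.57 in air1 rrp6 (adjusted p = 0.29) and 0.62 in air2 rrp6 (adjusted p = 0.21). Its size depended on single libraries: without WT replicate 1 it was 0.08 for rrp6, 0.16 for air1 rrp6 and 0.18 for air2 rrp6. Without WT replicate 2 it was 0.942, 1.016 and 1.035 in the same order. For rrp6 against WT it was 0.71 without rrp6 replicate 1 and 0.28 without rrp6 replicate 2.

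RRP40, the second S1 and KH cap gene, had the largest point estimate of the members. Its libraries held 9.18 and 10.5 CPM for WT, 8.11 and 13.3 for rrp6, 14.4 and 19.3 for air1 rrp6, and 11.1 and 10.7 for air2 rrp6. Both air1 rrp6 libraries were above the 6 others, and those 6 overlapped between strains apart from air2 rrp6 and WT. The share of features with this pattern was not counted. In single comparisons, both air1 rrp6 libraries were above both of WT for 28.6% of features, of rrp6 for 18.3% and of air2 rrp6 for 18.6%. The log2 fold change was 0.78 in air1 rrp6 against WT (SE 0.27, n = 2, 95% interval 0.16 to 1.39, adjusted p = 0.14 by edgeR), 0.66 against rrp6 (adjusted p = 0.78) and 0.63 against air2 rrp6 (SE 0.27, 95% interval 0.02 to 1.24, adjusted p = 0.99). Between air1 rrp6 and air2 rrp6, a comparison of loss of Air1 with loss of Air2, 3.99% of features had an unadjusted p under 0.05, and RRP40 was the 1 member among them. Against rrp6 the log2 fold change of RRP40 was 0.35 without rrp6 replicate 1 and 1.06 without rrp6 replicate 2, and against air2 rrp6 it was 0.40 without air1 rrp6 replicate 2.

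MTR3 and CSL4 had the next estimates to RRP40 in air1 rrp6 against rrp6. MTR3 had 8.80 and 12.6 CPM in rrp6 and 13.4 and 16.4 in air1 rrp6, which gave 0.48 on the log2 scale (SE 0.25, n = 2, adjusted p = 0.78 by edgeR). CSL4 had 19.6 and 26.6 CPM in rrp6 and 30.8 and 30.0 in air1 rrp6, which gave 0.40 (SE 0.21, n = 2, adjusted p = 0.78 by edgeR). Both genes were lowest in rrp6 replicate 1, where the summed level of the 10 members was 211.8 CPM, beside 245.9 in rrp6 replicate 2. Without rrp6 replicate 1, MTR3 was at 0.24 and CSL4 at 0.19 in this comparison, and without rrp6 replicate 2 they were at 0.76 and 0.63.

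RRP42, a ring gene, stood at 14.4 and 18.8 CPM in the WT libraries, 21.5 and 21.6 in those of rrp6, 23.8 and 25.5 in those of air1 rrp6, and 27.0 and 24.6 in those of air2 rrp6. Both WT libraries were the lowest. The smallest adjusted p of a member in a pairwise comparison was that of RRP42 in air2 rrp6 against WT, with a log2 fold change of 0.63 (SE 0.20, n = 2, 95% interval 0.18 to 1.08, adjusted p = 0.089 by edgeR). The log2 fold change of RRP42 was 0.37 in rrp6 (adjusted p = 0.31) and 0.57 in air1 rrp6 (adjusted p = 0.14). Without WT replicate 1 these were 0.35 in air2 rrp6, 0.11 in rrp6 and 0.31 in air1 rrp6. Without WT replicate 2 they were 0.79, 0.56 and 0.76 in the same order.

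RRP46, another ring gene, had the smallest unadjusted p of the members in rrp6 against WT. The WT libraries held 15.8 and 17.4 CPM of RRP46, those of rrp6 20.9 and 24.6, those of air1 rrp6 23.9 and 26.0, and those of air2 rrp6 21.4 and 19.8. Here too both WT libraries were below the 6 others. The log2 fold change was 0.45 in rrp6 against WT (SE 0.19, n = 2, 95% interval 0.02 to 0.89, adjusted p = 0.20 by edgeR), 0.59 in air1 rrp6 (adjusted p = 0.11) and 0.31 in air2 rrp6 (adjusted p = 0.40). Without WT replicate 1 it was 0.29 in rrp6 and 0.13 in air2 rrp6.

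SKI6 ranged from 13.97 CPM in rrp6 replicate 1 to 24.1 in air1 rrp6 replicate 2, its duplicates in air1 rrp6 differing by 0.50 on the log2 scale. RRP43 ranged from 25.5 CPM in WT replicate 1 to 42.6 in air1 rrp6 replicate 2, and its WT duplicates differed by 0.53. RRP45 kept to the narrowest of these ranges, from 20.2 CPM in rrp6 replicate 1 to 28.5 in air1 rrp6 replicate 2, with both air1 rrp6 libraries above both of WT. Groups otherwise overlapped WT for these 3 ring genes, apart from SKI6 in air2 rrp6, whose libraries at 20.7 and 19.5 CPM lay above 18.68 and 18.98 in WT. No adjusted p of SKI6, RRP43 or RRP45 against WT was below 0.54 by edgeR.

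DIS3, which carries the exonuclease and endonuclease sites of the core, stood at 34.3 and 37.0 CPM for WT, 43.2 and 36.4 for rrp6, 40.7 and 34.6 for air1 rrp6, and 44.6 and 34.9 for air2 rrp6. Its duplicates overlapped WT in each strain, and its strain means spanned 1.12-fold, the smallest span of the members. The log2 fold change of DIS3 in the average over strains without RRP6 was 0.13 (95% interval -0.24 to 0.50). RRP40 was at 0.34 in that average (95% interval -0.16 to 0.85). CSL4 was at 0.01 (95% interval -0.38 to 0.40), SKI6 at 0.01 (-0.43 to 0.45), MTR3, named after an mRNA transport mutant, at -0.01 (-0.46 to 0.45), RRP45 at 0.08 (-0.28 to 0.44) and RRP43 at 0.17 (-0.25 to 0.60). These 7 intervals leave out a 2-fold change relative to TMM scaling and do not leave out every smaller one.

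Most members shifted in the same direction between the duplicates of a strain. They were read from the same libraries, so they are not independent observations. The share of protein-coding genes with replicate 2 above replicate 1 was not counted. Replicate 2 was above replicate 1 for 9 of 10 members in WT, 9 in rrp6 and 8 in air1 rrp6, but for 2 in air2 rrp6. The median log2 difference was 0.17 for WT, 0.36 for rrp6, 0.15 for air1 rrp6 and -0.10 for air2 rrp6, while that of protein-coding genes was between -0.024 and -0.0011. DIS3 went the other way in rrp6, where it was -0.25, and in air1 rrp6, where it was -0.24. The summed level of the 10 members was 213 ± 24 CPM for WT, 229 ± 24 for rrp6, 266 ± 20 for air1 rrp6 and 255 ± 11 for air2 rrp6. The highest WT library, at 229.9 CPM, was above the lowest rrp6 library and below the 4 double mutant libraries. Of single features, 28.6% had both air1 rrp6 libraries above both WT libraries, and 30.7% had both of air2 rrp6 above them. The sum gives more weight to members with higher counts, and it was not tested.

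Over the 8 libraries the member profile closest to the mean profile of the members was that of RRP45, with a root-mean-square difference of 0.075 on the log2 scale. The profile of RRP4 lay furthest, at 0.24. The mean includes each member itself. Among the 7543 features tested, ranks of members in closeness to the mean ran from 2 for RRP45 to 1059 for RRP4. The features outside the complex with the smallest root-mean-square differences were RPA49 (0.05), RAD57 (0.08) and RBK1 (0.08). RBK1 neighbours RRP43 on its chromosome in the RefSeq annotation.

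Other genes of RNA decay and 1 unrelated complex were read beside the core. None of the 5 nuclear cofactors LRP1, MPP6, MTR4, PAP2 and TRF5, which bring RNA to the nuclear exosome, passed in any comparison. The same held for the 4 genes of the cytoplasmic Ski pathway (SKI2, SKI3, SKI8 and SKI7), 11 proteins of RNase P and RNase MRP, 11 genes of other nucleases of RNA decay and trimming, among them RAT1 and XRN1, and the 14 genes of the 20S proteasome. Median log2 fold changes in rrp6 against WT were 0.13 for the nuclear cofactors, -0.07 for the Ski genes, -0.25 for RNase P and MRP, -0.07 for the other nucleases and -0.23 for the proteasome, beside 0.05 for the core exosome. In air1 rrp6 against WT the medians were -0.01, -0.17, 0.07, -0.08 and 0.15 in the same order, beside 0.23 for the core. In air2 rrp6 against WT they were 0.09, -0.11, -0.12, -0.12 and -0.07, beside 0.15 for the core. In air1 rrp6 against rrp6 the medians of RNase P and MRP (0.48) and of the proteasome (0.38) were above that of the core (0.29), and that of the nuclear cofactors was -0.18. Per length, the median level in WT was 82.7 CPM per kb for the proteasome, 26.6 for the other nucleases, 22.5 for the nuclear cofactors, 10.9 for RNase P and MRP and 10.3 for the Ski genes, with 22.7 for the core exosome.

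**Figure D4:**
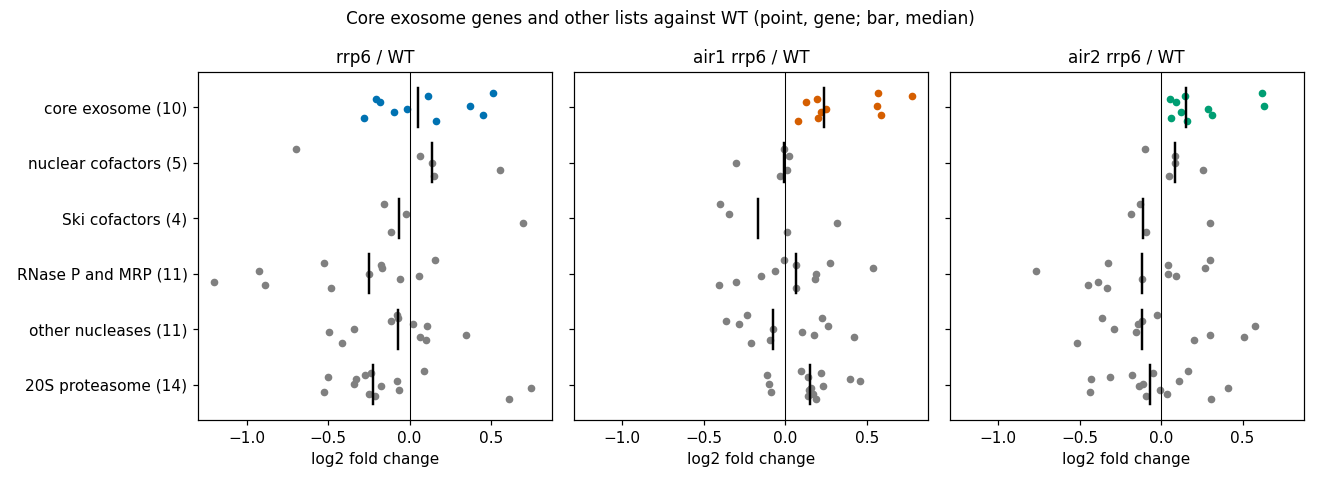
Log2 fold change against WT (horizontal axis, the same in each panel) of the genes of the core exosome and of the other lists, with 1 point per gene and a bar at the median of each list. All points of the core exosome lie above 0 in air1 rrp6 and air2 rrp6, and they scatter around 0 in rrp6.

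The p-values of the authors' deposited table are not said to be adjusted. In the authors' deposited table no member had a p under 0.05 in rrp6 against WT (17.4% of features), in air1 rrp6 against rrp6 (6.83%) or in air2 rrp6 against rrp6 (4.31%). For air1 rrp6 against WT the authors' deposited table had RRP4 (log2 ratio 1.03, p = 0.013) and RRP40 (0.88, p = 0.038) under 0.05, with 19.1% of features. For air2 rrp6 against WT the authors' deposited table had RRP4 (1.08, p = 0.0082) and RRP42 (0.83, p = 0.042), with 22.1% of features. The columns of these last comparisons in the authors' deposited table are headed as WT over mutant but hold RRP6, which the mutants lack, at -4.29 and -4.41, so they were read as mutant over WT.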

How the data were processed

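The RNA was selected on poly(U) sepharose. Estimated counts per feature were made by the authors and deposited with no scaling for depth; of these, 11.1 to 13.0% in each library were fractional. The submitters' processing notes name Bowtie 0.12.7, edgeR 2.2.5 and SAMtools and say nothing of their roles, and genome build, annotation and strand use were not given in the sources used here. Log2 ratios and p-values of 5 comparisons were deposited by the authors in another table, per the file headers. One p-value column there holds an entry below 0, so it was classed as a score among the deposited units. The column was still read as p-values, as its header names it, and that entry was left out.

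Symbols and coding lengths came from a RefSeq table (R64), which matched 6048 of 9014 features. Estimated counts were rounded, filtered with filterByExpr (minimum count 10) and scaled by TMM in edgeR 4.0.16 (R 4.3.3, limma 3.58.1). The quasi-likelihood fit was robust, took in all 8 libraries with a mean for each strain and no block, and was adjusted by Benjamini-Hochberg over 7543 features. Standard errors and 95% intervals came from the same fit. They were tried on simulated data for air1 rrp6 against rrp6 only. The simulation gave every feature the same dispersion, so it does not show the coverage of the intervals in these data. DESeq2 1.42.0, other scalings, no filter, a replicate block and left-out libraries were alternatives. The genes named are all members, the deleted genes, up to 3 genes per list past the threshold, and the 3 nearest profiles (log2 CPM with a prior count of 2). Members and lists were chosen with earlier results of these data known.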

Additional observations from a re-analysis of the deposited data

How the results depend on the processing

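Alternatives were other scalings, no filter on low counts, DESeq2, only the strains compared, the replicate block and leaving out each library. With library totals in place of TMM, which moved the median of all features to 0.64, 0.77 and 0.95 in rrp6, air1 rrp6 and air2 rrp6 against WT, the member medians were 0.70, 1.07 and 1.08. That scaling passed 1 member in air1 rrp6 (RRP40), 2 in air2 rrp6 and 2 in the average without RRP6 (RRP4 and RRP42 in both), where the member median was 0.96 and that of all features 0.77. It gave member medians of 0.54 in air2 rrp6 against rrp6 (all features 0.32) and -0.061 in air1 rrp6 against air2 rrp6 (all features -0.18), and no member interval lay within 2-fold. With the replicate number as a block, 1 member, RRP4, passed in the average without RRP6 (0.60, adjusted p = 0.045), and the block changed no other member's call. Deviations of same-numbered libraries correlated at 0.13 to 0.37 in the 6 pairs of strains, but no label ties a number to a batch. Over left-out libraries 0 to 1 members passed in that average, and 0 in the 6 pairwise comparisons and the test over all strains. Where 1 library of a strain was left, it was assumed to vary like the other strains. The median in air1 rrp6 against air2 rrp6 ran from 0.010 to 0.19, and that of rrp6 against WT from -0.16 to 0.19. Of 60 intervals, 42 to 56 lay within 2-fold over left-out libraries. The cause of these shifts was not tested. The lowest count of a member was 114, for RRP40 in WT replicate 1.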
